A study of Mus musculus with 2 samples.

Results

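EGFP and tdTomato are the lineage reporters of the Prx1Cre;mTmG mouse, and both are features of the deposited single-cell matrices, 2 of 31055 features in each. They were taken by name, and their UMIs (unique molecular identifiers, each standing for 1 captured transcript) were described cell by cell in classes gated on other genes. The cells came from periosteum, the tissue layer that covers bone, of Prx1Cre;mTmG mice in 2 libraries of 1 sample each: an uninjured one (day 0) and one taken 3 days after tibial fracture. Both groups carry the Cre driver and the reporter, so no library lacks either. The labels describe explants kept at 33 °C with 20% serum and bFGF at 10 ng/mL until 80% confluent, whereas the design text speaks of unexpanded cells. They also give genomic DNA as the molecule, although the values are transcript UMIs. The sources used here do not state the number, age or sex of the mice.

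The mTmG reporter is a transgene at the Rosa26 locus. It makes membrane-bound tdTomato until Cre recombinase cuts out the tdTomato cassette, after which the same promoter drives membrane-bound EGFP in the cell and in all its descendants. In Prx1Cre mice Cre is driven by a Prrx1 enhancer that is active in early limb mesenchyme, the embryonic source of the fibroblasts, cartilage, bone and periosteal progenitors of the limb. Macrophages, osteoclasts and neutrophils descend from blood-forming cells and serve here as the classes that should keep tdTomato.

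The uninjured library held 4573 barcodes with a median of 19366 UMIs and the day 3 library held 16332 with a median of 7030. Filters on genes, UMIs, mitochondrial share and doublet score left 4269 uninjured and 12573 day 3 cells (median UMIs 19397 and 7465), and 3 barcode sequences occurred in both libraries. There was 1 library per group, so no difference between the libraries has a replicate check, no test was run, and every interval below is a 95% interval for counting error only. The depth gap between the libraries was handled for shares of cells by thinning each cell at random to 3000 UMIs and leaving out shallower cells.

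Classes were gated on levels in UMIs per 10000 UMIs of the cell. The mesenchymal gate asked for Col1a2, a chain of type I collagen, and Prrx1, the limb mesenchyme transcription factor whose enhancer drives the Cre. It took 2173 uninjured cells and 3232 day 3 cells. The C1q gate, on the complement genes C1qa, C1qb and C1qc of resident macrophages, took 1242 and 4464 cells. The osteoclast gate (Acp5, Ctsk and Atp6v0d2 or Ocstamp, genes of bone resorption) took 64 and 422 cells, and the neutrophil gate (S100a8 and S100a9 with a granule or receptor gene) took 8 and 593. A chondrocyte-like gate on cartilage matrix genes such as Col2a1 and Acan took 0 uninjured and 55 day 3 cells. Cells that passed a mesenchymal and a blood gate were set apart as mixed, 245 uninjured and 43 at day 3, and 537 and 3749 cells passed no gate.

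A gate is a range of levels and not a cell type. Within a factor of 1.5 of the mesenchymal thresholds lay 204 uninjured cells inside and 160 outside, and 70 and 62 at day 3. For the C1q gate these were 81 and 115 uninjured and 733 and 693 at day 3. In the mesenchymal and C1q gates the other's genes were low in the median cell: C1q genes reached 0.721 UMIs per 10000 in uninjured and 0 in day 3 mesenchymal cells, against 49.2 and 27.4 in the C1q gate, and Col1a2 and Prrx1 together reached 0.878 and 0 in C1q cells, against 23.3 and 14.7 in mesenchymal ones. The median chondrocyte-like cell held Col1a2 and Prrx1 together at 53.2, above the median of mesenchymal cells. This was mostly Col1a2, with a median of 51.9, while Prrx1 had a median of 0 and was seen in 8 of 55 cells. The mesenchymal gate was filled by different clusters in the libraries, mainly 7, 11, 12 and 14 in the uninjured library and 3, 6, 9 and 17 at day 3, all built without the reporters.

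EGFP was abundant in the mesenchymal gate of both libraries. Summed over cells it stood at 2475 CPM (UMIs per 1000000 UMIs of the class, interval 2462 to 2488) in the uninjured library, from 143256 EGFP UMIs. At day 3 it stood at 1790 CPM (1782 to 1798), from 207399 UMIs. The middle mesenchymal cell carried 23.3 EGFP UMIs per 10000 in the uninjured library, with 5% of cells under 5.08 and 5% above 44.4. At day 3 the median was 17.8, with 5% of cells under 5.77 and 5% above 28.2. In these absolute units, and around a lower median, the spread between cells was narrower at day 3, mainly at the upper end. Spread relative to the median was not computed.

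**Figure D1:**
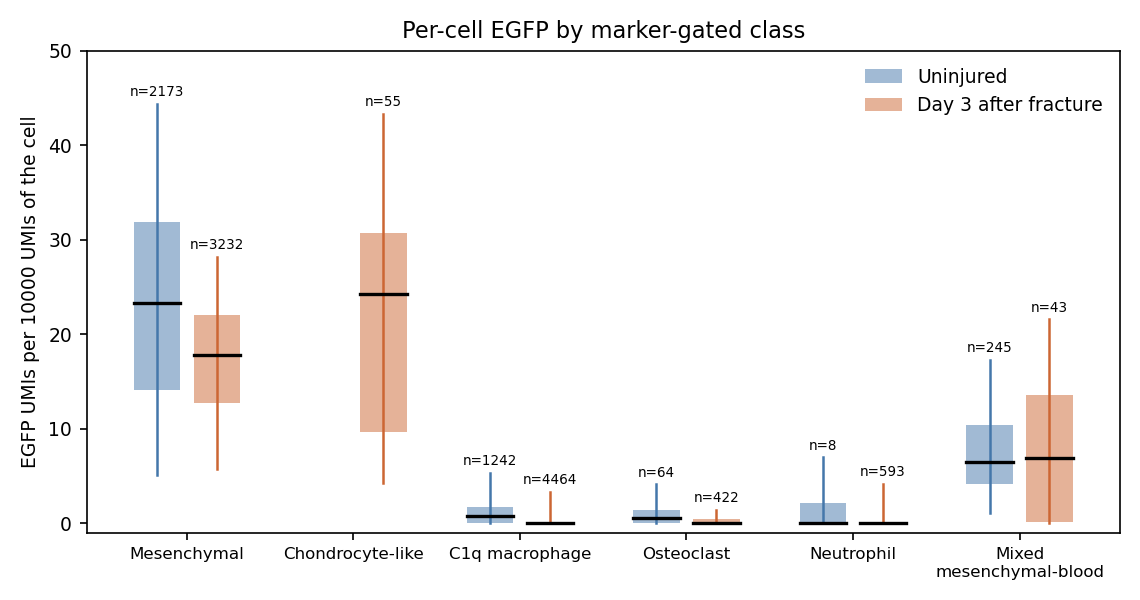
EGFP UMIs per 10000 UMIs of the cell (linear axis) in each gated class of the uninjured (blue) and day 3 (orange) library; black bars are medians, boxes the 25th to 75th percentile, lines the 5th to 95th percentile, and n the number of cells. Mesenchymal cells have medians of 23.3 and 17.8, C1q macrophages 0.803 and 0, and mixed cells 6.46 and 6.86.

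At equal depth nearly every mesenchymal cell had at least 1 EGFP UMI. After thinning the share was 97.1% of 2171 uninjured cells (96.3% to 97.8%) and 97.6% of 3171 day 3 cells (97.0% to 98.1%), and without thinning 99.7% and 99.3%. The thinned EGFP count averaged 7.12 with an SD of 4.39 over uninjured cells and 5.25 with an SD of 2.97 at day 3. Its variance was 2.71 times its mean in the uninjured library and 1.68 times at day 3, where pure sampling of equal cells gives a ratio near 1. Among other genes within 1.5-fold of EGFP's mean, EGFP was more variable than 16 of 24 in the uninjured library (their median ratio was 1.79) and than 19 of 28 at day 3 (median 1.44). Col1a2 had ratios of 3.71 and 1.84, and Acta2, the smooth muscle actin of contractile cells, 7.65 and 4.86. At day 3 both lay outside that 1.5-fold range, with mean thinned counts of 2.89 and 2.18, and Col1a2 is a gate gene. This comparison of spread was chosen after values were seen.

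The 55 chondrocyte-like cells of day 3 also carried EGFP. Their sum stood at 2050 CPM (1764 to 2368) and the middle cell at 24.2 UMIs per 10000, and 52 of the 55 cells had an EGFP UMI. The ratio to the mesenchymal gate was 1.15 (0.986 to 1.32), an interval that includes equality. These cells were shallow, with a median of 1263 UMIs, and only 1 of them reached the 3000 UMIs needed for thinning.

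Some EGFP-rich cells lay outside the mesenchymal gate. Cluster 19, led by the contractile genes Tpm2, Actg2, Tagln and Acta2, held EGFP at 2752 CPM in 88 uninjured cells and 2192 CPM in 214 day 3 cells, while only 18.2% and 12.6% of its cells passed the gate. Its Prrx1 level was 95.8 and 164 CPM, against 395 and 575 CPM in the mesenchymal gate. Cluster 22 of day 3, led by C1qtnf3, Acan and Col2a1, held EGFP at 1988 CPM with Prrx1 at 249 CPM. Of all cells with at least 5 EGFP UMIs per 10000, 2551 uninjured and 3781 at day 3, the mesenchymal gate held 81.0% and 82.0%, and cells in no gate held 9.96% and 12.7%.

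Among the cells in no gate, EGFP was lowest in those with pan-blood genes. These cells, with at least 3 of Ptprc, Tyrobp, Fcer1g, Coro1a and Laptm5, had EGFP at 295 CPM in 305 uninjured cells and 60.7 CPM in 3092 day 3 cells. Those without pan-blood genes but with Col1a2 had 1808 CPM in 177 cells and 1286 CPM in 182 cells. The remaining 55 and 475 cells, below the Col1a2 threshold as well, had 2597 and 1945 CPM as sums. Their EGFP was uneven between cells: 80.0% and 56.0% of them had an EGFP UMI, the mean of per-cell levels was 2105 and 1161 CPM, and the day 3 cells had a 25th percentile of 0. This split was made after values were seen. Of the other cell types looked for, at most 3 cells had endothelial markers, 5 mural markers, 10 B cell markers and 4 T or NK cell markers in a library, and 0 had glial or muscle markers, so EGFP in those types was not described.

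EGFP was low in the blood gates but above 0. In C1q macrophages it stood at 173 CPM (167 to 180) in the uninjured library and 48.7 CPM (46.1 to 51.3) at day 3, that is 14.3-fold (13.7 to 14.8) and 36.8-fold (34.9 to 38.8) below the mesenchymal gate. Osteoclasts had 115 CPM (97.5 to 135) and 26.4 CPM (22.8 to 30.3). Neutrophils had 75.3 CPM (65.7 to 86.0) at day 3, and in the uninjured library only 5 EGFP UMIs in 8 cells. At day 3 the order was mesenchymal, neutrophil, C1q macrophage and osteoclast, with no overlap of neighbouring intervals. The place of neutrophils rested on 6 of their 593 cells, chosen after values were seen: without them the level was 39.1 CPM (32.2 to 47.1), below that of C1q macrophages, which was 41.2 CPM (38.9 to 43.7) without their own highest 1% of cells, with overlapping intervals. In the uninjured library the intervals of C1q macrophages and osteoclasts did not overlap, and that of the 8 neutrophils (49.3 to 354) overlapped both.

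After thinning, 28.6% of uninjured C1q macrophages (26.1% to 31.3%) and 13.5% of day 3 ones (12.4% to 14.7%) had an EGFP UMI, 60.2% and 22.3% without thinning. Osteoclasts had 25.8% (15.5% to 38.5%) and 9.0% (6.42% to 12.2%), and day 3 neutrophils 12.5% (9.20% to 16.4%). The EGFP UMIs of day 3 neutrophils sat in few cells: the 6 highest cells held 49.1% of them, against 16.5% in the highest 1% of C1q macrophages. In the 8 thinned neutrophils with 3 or more EGFP UMIs the median pan-blood level was 26.4 UMIs per 10000, against 48.8 in the 309 without EGFP.

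Droplet libraries contain free RNA, and its part in the EGFP of blood cells was not tested directly; what could be measured was how other mesenchymal genes stood in the same cells. Of 25 such genes outside the gates (collagens, lysyl oxidases, Twist1, Pdgfra and others), those at 10 CPM or more in mesenchymal cells were each expressed as a percentage of their mesenchymal level. In uninjured C1q macrophages EGFP stood at 7.01% of its mesenchymal level (6.74% to 7.29%), against a median of 17.3% over the 25 genes, all 25 of which were above EGFP. At day 3 EGFP stood at 2.72% (2.57% to 2.87%) against a median of 3.70% over 24 genes, 21 of them above EGFP. Osteoclasts gave 4.66% against 12.8% and 1.47% against 2.18%. Day 3 neutrophils gave 4.21% (3.67% to 4.81%) against 2.49%, with 1 of 24 genes above EGFP. Without the 6 cells with the most EGFP, a choice that by itself lowers EGFP, they gave 2.18% (1.80% to 2.63%) against 2.31%, with 14 of 24 genes above it. Without their own highest 1% of cells, day 3 C1q macrophages gave 2.30% against 3.63%, with 24 of 24 genes above. Day 3 osteoclasts then gave 1.22% against 2.21%, with 22 of 24 genes above.

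**Figure D2:**
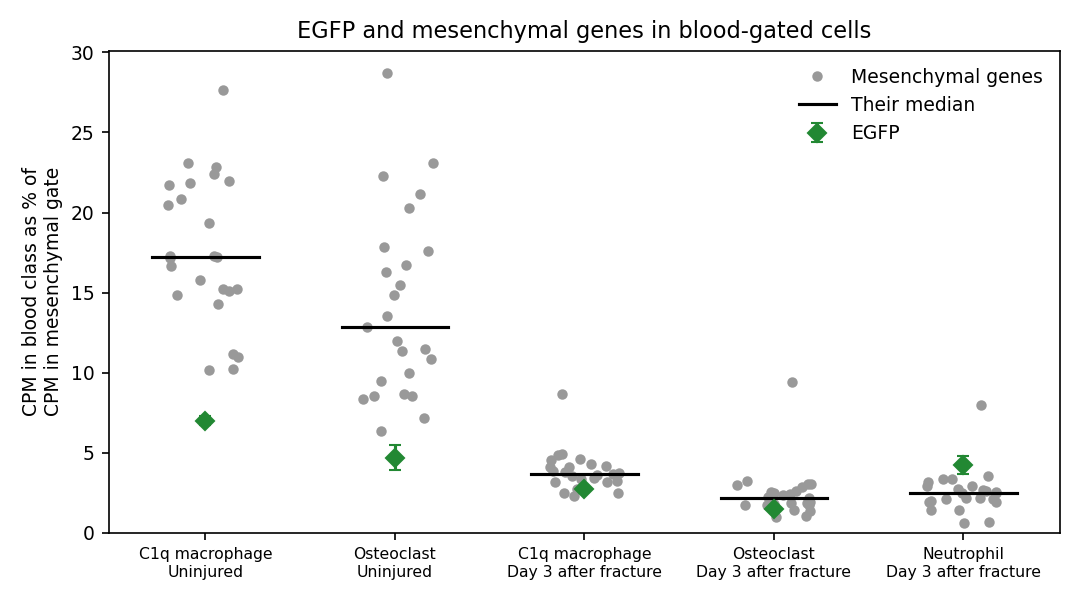
Level in a blood gate as a percentage of the level in the mesenchymal gate of the same library (linear axis), for EGFP (green diamonds, 95% counting interval) and for 25 (uninjured) or 24 (day 3) mesenchymal genes (grey points, black bar at their median). EGFP lies below every grey point in both uninjured classes and above the median in day 3 neutrophils, at 4.21% against 2.49%. Leaving out the 6 neutrophils with the most EGFP, which by itself lowers EGFP, gives 2.18% against 2.31%. All cells of each class are plotted.

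The uninjured C1q value rested in part on 1 cluster. Cluster 11, found in the uninjured library alone, mixed both kinds of gene: Tyrobp, a myeloid signalling adaptor, stood at 1067 CPM and Col1a2 at 1561 CPM. Of its cells 29.9% passed the mesenchymal gate, 17.6% the C1q gate and 37.0% both kinds of gate, and its EGFP level was 754 CPM. Clusters 11 and 17 were left out together, which removed 110 C1q-gated and 187 mesenchymal cells from the uninjured library. EGFP in uninjured C1q macrophages was then 101 CPM in place of 173, and in mesenchymal cells 2619 CPM in place of 2475. The ratio of mesenchymal to C1q was 25.8 (24.4 to 27.3) in place of 14.3. EGFP stood at 3.87% of its mesenchymal level against a median of 5.38%, with 22 of 25 genes above it. The day 3 C1q value was 48.7 CPM in both cases, which was fixed, since no day 3 C1q-gated cell was left out.

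tdTomato was rare everywhere. The uninjured library held 54 tdTomato UMIs and the day 3 library 216 in all retained cells, with at most 2 in any cell. C1q macrophages had 26 UMIs, or 1.77 CPM (1.16 to 2.59), in the uninjured library and 105 UMIs, or 3.81 CPM (3.11 to 4.61), at day 3. Mesenchymal cells had 9 UMIs, or 0.155 CPM (0.0711 to 0.295), and 8 UMIs, or 0.0690 CPM (0.0298 to 0.136). The C1q level was 11.4-fold (5.16 to 27.6) and 55.1-fold (27 to 131) that of mesenchymal cells.

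The other blood classes had tdTomato at similar levels to macrophages at day 3. Osteoclasts had 19 UMIs (2.58 CPM, 1.55 to 4.03) and neutrophils 10 UMIs (3.46 CPM, 1.66 to 6.36), so the 3 blood classes were not separated by their intervals. In the uninjured library osteoclasts had 1 UMI and neutrophils 0, where 3 UMIs, the one-sided 95% limit for a count of 0, would be 91.0 CPM. Chondrocyte-like cells had 0 UMIs, for which the same 3 UMIs would be 33.4 CPM, a limit above every tdTomato level measured. Levels of EGFP and tdTomato are not set against each other, since the sources used here do not state which part of each transgene the reference held. The exception is an alternative measure under processing, EGFP as a share of both reporters.

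A tdTomato UMI seldom marked a blood cell. After thinning, 0.666% of uninjured C1q macrophages (0.288% to 1.31%) and 1.14% of day 3 ones (0.813% to 1.54%) had one, 2.09% and 2.33% without thinning. Of the day 3 C1q macrophages at full depth, 73 had tdTomato alone, 963 EGFP alone, 31 both and 3397 neither. Of the uninjured mesenchymal cells, 2157 had EGFP alone, 9 both, 0 tdTomato alone and 7 neither. In mesenchymal cells tdTomato stood at 8.79% (3.63% to 19.4%) of its C1q level in the uninjured library and 1.81% (0.763% to 3.71%) at day 3, where 10 macrophage genes had medians of 3.66% and 1.75%; without clusters 11 and 17 the tdTomato values were 4.67% and 0.968%, from 5 and 4 UMIs, against medians of 1.78% and 1.06%.

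EGFP was among the genes that most often ordered mesenchymal above blood cells. The area under the ROC curve, the chance that a random mesenchymal cell has more thinned EGFP UMIs than a random blood-gated cell with ties counted equally, was 0.963 in the uninjured library (2171 against 1269 cells) and 0.979 at day 3 (3171 against 4284). EGFP ranked 1 in both libraries in this direction, above all 8251 and 9130 other genes at 10 CPM or more in either class. Genes higher in blood cells could not rank above it. Reverse areas were not ranked, so EGFP is not placed against those genes. Areas of 0.9 or more were reached by 0.109% and 0.131% of the 8251 and 9130 genes, with genes higher in blood cells included. The gates themselves used Col1a2, at 0.944 and 0.932, and Prrx1, at 0.822 and 0.891, so their areas are set by the choice of cells, whereas EGFP was in no gate.

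Of genes outside the gates, those next to EGFP were Sparc, a matrix protein of bone (0.962 and 0.958), Bgn, the proteoglycan biglycan (0.939 and 0.967), Timp1, an inhibitor of matrix proteases (0.919 and 0.963), and Cald1, an actin-binding protein (0.909 and 0.975). The uninjured areas of EGFP and Sparc were 0.963 and 0.962, a gap too small to rank them. At day 3 the area of Cald1 was 0.975, against 0.979 for EGFP. Both areas come from the same cells and no interval for their gap was computed, so close areas are not separated here. By blood class the area of EGFP was 0.963 against C1q macrophages and 0.965 against osteoclasts in the uninjured library, and 0.980, 0.983 and 0.973 against C1q macrophages, osteoclasts and neutrophils at day 3. The area of tdTomato, 0.497 and 0.495, was fixed near 0.5 by its rarity, since only 0.630% and 1.07% of thinned blood-gated cells held a tdTomato UMI.

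A threshold on EGFP traded detection against false detection. At 1 or more thinned UMIs 97.1% of uninjured mesenchymal and 28.5% of blood-gated cells passed, and 97.6% and 13.0% at day 3. At 3 or more, 84.4% (82.8% to 85.9%) and 3.07% (2.19% to 4.18%) passed in the uninjured library, and 81.3% (79.9% to 82.6%) and 0.560% (0.359% to 0.832%) at day 3. At 10 or more, 28.1% of mesenchymal and 1 of 1269 blood cells passed in the uninjured library, and 9.18% and 0 of 4284 at day 3. With every UMI used and a threshold of 5 EGFP UMIs per 10000, the shares were 95.1% against 5.40% and 95.9% against 2.28%. Mixed cells and cells in no gate were left out of these areas and shares. At that last threshold 65.3% of uninjured and 58.1% of day 3 mixed cells passed. Among ungated cells with pan-blood genes 15.4% and 3.69% passed.

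**Figure D3:**
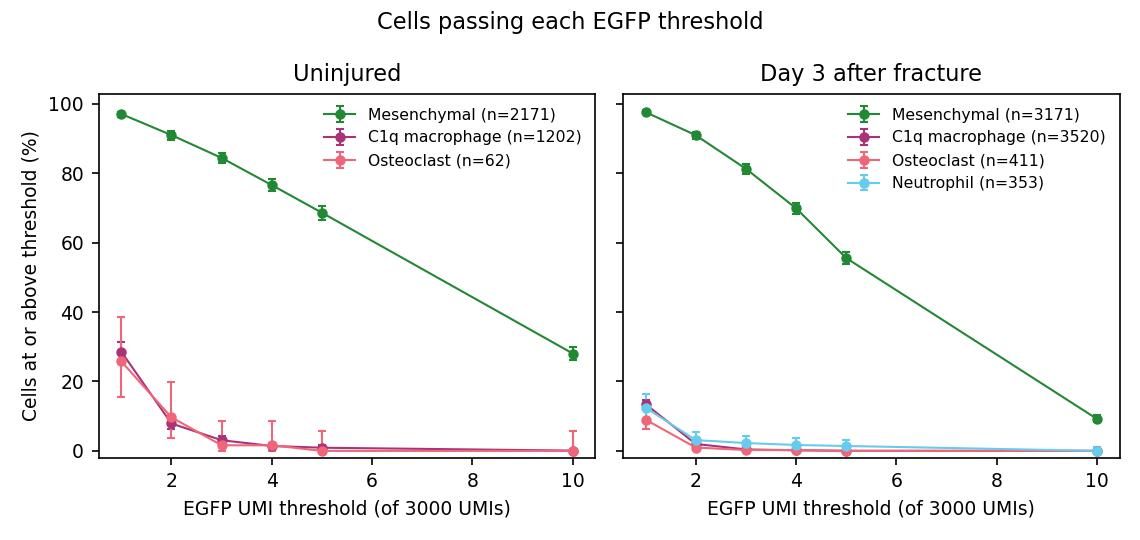
Percentage of cells (linear axis) with at least the given number of EGFP UMIs after thinning to 3000 UMIs, by gated class, in the uninjured (left) and day 3 (right) library; bars are exact 95% intervals and n the cells deep enough to thin. At 3 UMIs the mesenchymal curves stand at 84.4% and 81.3% and the C1q curves at 3.08% and 0.426%.

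EGFP divided the clusters, and tdTomato tended the opposite way. Of 27 sums of a cluster in a library with at least 50 cells, 10 had EGFP between 962 and 2888 CPM and 16 between 24.5 and 148 CPM. The single sum in between was cluster 11 at 754 CPM. tdTomato had a median of 0.0169 CPM and a maximum of 0.523 CPM in the 10 EGFP-high sums, and a median of 3.02 CPM and a maximum of 6.23 CPM in the 16 EGFP-low sums. The lowest of these 16 had 0 CPM, so the tdTomato ranges of both groups overlapped. That sum was cluster 2 of day 3, only 54 cells with a median of 1693 UMIs, and its interval reached 22.6 CPM. The next lowest of the 16 was cluster 16 of the uninjured library, at 0.735 CPM (0.0186 to 4.10) from 1 UMI. The lowest EGFP-high sum was cluster 17 of day 3, at 962 CPM, which also had the highest tdTomato of the 10 (4 UMIs).

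**Figure D4:**
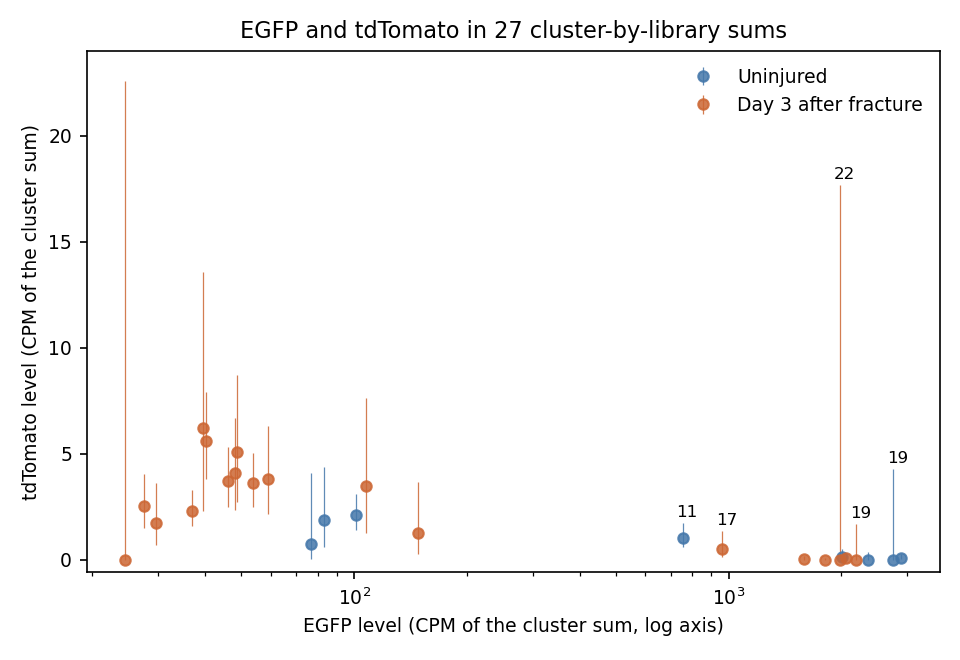
EGFP (log axis) against tdTomato (linear axis), both in CPM of summed UMIs, for 27 sums of a cluster in a library (blue uninjured, orange day 3); vertical bars are exact 95% counting intervals for tdTomato and numbers name clusters 11, 17, 19 and 22. The 16 sums up to 148 CPM of EGFP reach 6.23 CPM of tdTomato, and the 10 sums from 962 CPM upward stay at or below 0.523 CPM.

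Across these 27 sums the genes most like EGFP, by Pearson's r of log2(CPM + 1) among 5926 genes, were Gpx8 (0.979), Myl9 (0.974), Tubb2b (0.973), Ddah1 (0.972), Tuba1a (0.971), Armcx2 (0.971), Tpm2 (0.971), Ndn, Cald1 and Acta2. Myl9, Tpm2, Cald1 and Acta2 belong to the contractile apparatus, and Tubb2b and Tuba1a are tubulins. Prrx1 had r = 0.932 and Col1a2 r = 0.892, below those 10, and Gt(ROSA)26Sor, the transcript of the locus that holds the reporter (GRCm38 chromosome 6, 113067428 to 113077333, minus strand), had r = 0.598. The genes most like tdTomato were Neurl3 (0.924), Igsf6, Ccdc88b, Lpcat2, Csf2rb2, Was, Apobr, Tnfrsf13b, Elmo1 and Wdfy4 (0.882). Was, Elmo1 and Csf2rb2 act in the actin cytoskeleton, engulfment and cytokine reception of white blood cells. EGFP and tdTomato had r = -0.81. The sums share libraries and depth, and those of tdTomato rest on 0 to 33 UMIs each, so these values are descriptions.

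Cells were also compared by the Prrx1 they carried at the time. Prrx1 (GRCm38 chromosome 1, 163245119 to 163313710, minus strand) was left out of the selection, and cells were taken by Col1a2 at 5 or more UMIs per 10000 and no blood gate or pan-blood genes, a split made after values were seen. In the uninjured library the mean thinned EGFP count was 6.81 (SD 4.34) in 717 cells with 0 thinned Prrx1 UMIs, 7.27 (SD 4.04) in 635 cells with 1, 7.78 (SD 4.12) in 412 cells with 2 and 8.62 (SD 4.41) in 279 cells with 3 or more. The share of these cells with 3 or more EGFP UMIs was 85.5% (82.7% to 88.0%) at 0 Prrx1 UMIs and 93.5% (90.0% to 96.1%) at 3 or more. EGFP was thus higher in the cells with more Prrx1 UMIs of that library, with wide overlap between cells. At day 3 the means were 5.15 (SD 2.79) in 475 cells, 5.47 (SD 3.06) in 692, 5.42 (SD 3.00) in 580 and 5.47 (SD 2.91) in 651. The day 3 shares with 3 or more EGFP UMIs were 82.9% (79.3% to 86.2%) at 0 Prrx1 UMIs and 83.1% (80.0% to 85.9%) at 3 or more, with overlapping intervals.

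Between the libraries EGFP was lower at day 3 in mesenchymal cells, C1q macrophages and osteoclasts, the classes large enough in both to compare. The ratio of day 3 to uninjured CPM was 0.723 (0.718 to 0.728) in mesenchymal cells, or -0.47 on the log2 scale, where the median gene stood at 0.22. Of 8235 genes at 10 CPM or more in mesenchymal cells, 17.8% had a day 3 level 2-fold or more above the uninjured one and 6.17% a level 2-fold or more below it. EGFP passed neither line. Gt(ROSA)26Sor had a ratio of 1.11 (1.03 to 1.19), from 18.6 to 20.7 CPM. Prrx1 had 1.45 (1.43 to 1.48) and Col1a2 0.452 (0.448 to 0.456), so the gate genes themselves differed between the libraries.

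In C1q macrophages the EGFP ratio was 0.281 (0.262 to 0.300), or -1.83 on the log2 scale against 0.62 for the median gene, and 0.480 (0.444 to 0.519) without clusters 11 and 17. TMM scaling moved all ratios in this class by a log2 shift of 0.39 and gave 0.215. Of 8364 other genes at 10 CPM or more, 5.2% stood 2-fold or more below their uninjured level and 30.7% stood 2-fold or more above it. EGFP passed the lower line, but with classes taken from clusters its ratio was 0.555 (0.515 to 0.598) and it did not. tdTomato, which lies below 10 CPM, had a ratio of 2.15 (1.39 to 3.45), from 26 and 105 UMIs. Its ratio was under 2 with the mean of per-cell levels (1.99), without clusters 11 and 17 (1.89), with classes from clusters (1.86), with TMM scaling (1.65) and in male cells alone (1.27, 0.346 to 3.96). Osteoclasts had an EGFP ratio of 0.229 (0.184 to 0.285). It was 0.364 without clusters 11 and 17, where the uninjured osteoclast level was 72.3 CPM in place of 115, 0.359 with classes from clusters and 0.345 in male cells alone. The share of mesenchymal-gated cells also differed between the libraries (2173 of 4269 and 3232 of 12573 cells), and its part in the EGFP of blood cells was not tested.

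Mesenchymal cells in which no EGFP UMI remained after thinning numbered 63 of 2171 (2.90%) in the uninjured library and 75 of 3171 (2.37%) at day 3. Most were not free of EGFP: at full depth they held 414 and 604 CPM, and only 7 and 22 mesenchymal cells had no EGFP UMI at all, with medians of 8290 and 1532.5 UMIs. The 63 and 75 cells held only 1 and 3 tdTomato UMIs, or 0.825 and 1.51 CPM. The cells with EGFP held 8 and 5, or 0.141 and 0.0439 CPM. Cluster 11 held 49.2% of the 63 and cluster 17 held 32.0% of the 75, against 7.35% and 10.0% of the cells with EGFP. Prrx1 stood at 284 against 397 CPM in the uninjured library and 517 against 575 CPM at day 3, and Gt(ROSA)26Sor at 16.5 against 18.7 CPM and 21.1 against 20.7 CPM.

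The EGFP-poor cells held more of the pan-blood genes. All 5 of them were 2-fold or more above their level in the cells with EGFP in both libraries, with median ratios of 4.60 and 3.56, where the median over 2373 genes was 0.914 and 0.974. Genes of the mesenchymal list had median ratios of 0.995 and 1.31, and 1 of 25 in the uninjured library (Loxl2, 2.23) and 2 of 25 at day 3 (Mfap5, 2.10, and Thy1, 2.06) were 2-fold or more above. Over all 2373 genes, 2.02% in the uninjured library and 1.10% at day 3 were 2-fold or more above. Of these 2373 genes at 50 CPM or more, 22 (0.927%) were 2-fold or more above their level in the cells with EGFP in both libraries, and 0 (0%) were 2-fold or more below it. The 8 highest by the smaller ratio were Lpl (6.82-fold and 5.36-fold), Lcp1 (6.35 and 5.09), Ucp2 (5.20 and 4.81), Laptm5 (6.44 and 4.36), Ccl9 (4.14 and 4.20), Cd36 (4.63 and 4.08), Ctss (5.33 and 3.84) and Lyz2 (3.76 and 4.44). Of these, Lcp1, Laptm5, Ctss and Lyz2 are a leukocyte actin bundler, a lysosomal membrane protein of blood cells, a lysosomal protease and the myeloid lysozyme. The median pan-blood level was 9.88 against 1.12 UMIs per 10000 in the uninjured library and 0.861 against 0.355 at day 3. Doublets that escaped removal and free RNA were not tested as sources of these genes.

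Sex, called in each cell from Xist and 4 Y-linked genes, differed between the libraries: in the uninjured mesenchymal gate 1414 cells were called male and 0 female, while at day 3 425 were male and 2299 female. Within day 3 EGFP stood at 1778 CPM (1758 to 1798) in male and 1830 CPM (1821 to 1840) in female mesenchymal cells. With male cells alone the day 3 to uninjured ratio was 0.71.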

How the data were processed

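The authors deposited raw counts, 1 matrix per library, in which each value is the number of UMIs of a gene in a barcode, as whole numbers, per the file headers. The submitters' processing notes name the tools Cell Ranger and Seurat 4.0.1 and the build mm10, and version 3.1.0 of the counting software stands in the header of each matrix. The cell-calling rule was not given in the sources used here. Gene positions are from GRCm38, which is mm10.

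Barcodes with under 500 genes or 1000 UMIs (69 uninjured and 1412 at day 3) or over 10% mitochondrial UMIs (73 and 457) were removed. The automatic Scrublet threshold marked 0 and 0 doublets, so the highest scores were removed at 0.8% per 1000 barcodes (162 and 1890 cells). Cells were grouped by Leiden at resolution 1 on 15 neighbours in 30 principal components of 2000 variable genes. EGFP and tdTomato entered neither doublet scores, clusters nor gates.

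Gates, in UMIs per 10000, were Col1a2 and Prrx1 at 1 or more each with 3 UMIs together, summed C1q genes at 10 with 2 detected, Acp5 and Ctsk at 5 with Atp6v0d2 and Ocstamp together at 1, S100a8 and S100a9 together at 100 with another neutrophil gene, and 9 cartilage genes at 10 with 3 detected. A cell was called male with 2 or more Y-linked UMIs and no Xist, and female with 2 or more Xist UMIs and no Y-linked UMI. Class levels are CPM of summed UMIs with exact Poisson intervals, ratios have conditional binomial intervals and shares Clopper-Pearson intervals. UMIs carry molecular identifiers, but the intervals cover counting error only. The computations were tested on simulated data.

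The genes named are the reporters, the gate genes, the Rosa26 locus, the mesenchymal and macrophage lists, the 10 genes most like each reporter, the highest areas outside the gates and the 8 highest ratios in EGFP-poor cells. The members, gates and lists were chosen with earlier results of these data known. Alternatives changed the gates, doublet and depth filters, classes, weighting, scaling and thinning. TMM factors came from edgeR 4.0.16 in R 4.3.3. The rest used scanpy 1.11.5, leidenalg 0.10.2, scipy 1.17.1, scikit-learn 1.9.0, numpy 2.4.6, matplotlib 3.10.9 and pandas 2.3.3 under Python 3.11.15.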

Additional observations from a re-analysis of the deposited data

How the results depend on the processing

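No paired analysis was possible because each group has 1 library and no test was run. Of 437 values recomputed under an alternative, 323 stayed within the main interval and 114 moved outside it. This was the counting interval, or for gene counts within 1.5 times. For areas it was only a rough range, a binomial interval on the smaller group of cells. With so many UMIs the intervals are narrow. The 323 values include some that could not move, and these were not counted apart. The higher UMI minimum equalled the thinning depth, so values from thinned cells were the same by construction. Leaving out clusters 11 and 17 removed no cell from the day 3 blood gates, so their values were also fixed. The 323 is therefore not a measure of stability. Of 107 ratios and areas among the 437 values, 1 crossed equality, the tdTomato ratio in mesenchymal cells. It was 1.27 (0.579 to 3.09) without doublet removal and 0.444 (0.149 to 1.30) with it, both intervals including 1. Below, EGFP levels are in CPM, ratios are day 3 over uninjured, shares are of cells with an EGFP UMI, areas are mesenchymal against all blood gates, and pairs are uninjured then day 3. The cause of each move was not tested.

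Without doublet removal mesenchymal levels were 2454 and 1698 and C1q levels 191 and 59.7, the ratios 0.692 (mesenchymal) and 0.313 (C1q), and the day 3 area 0.973. At a 5% mitochondrial limit mesenchymal levels were 2489 and 1907, their ratio 0.766, the day 3 mesenchymal share 98.6% and the day 3 area 0.987. Doubled gate thresholds gave 2563 (mesenchymal) and 193 (C1q) in the uninjured library, ratios of 0.699 and 0.245 and an uninjured mesenchymal share of 97.8%. Halved thresholds gave 2503 and 1800 (mesenchymal), 147 (uninjured C1q) and a C1q ratio of 0.341. Classes from clusters gave 2565 (mesenchymal) and 101 (C1q) uninjured, 56.2 for day 3 C1q, ratios of 0.697 and 0.555 (the C1q ratio then no longer 2-fold), uninjured shares of 98.4% and 23.9% and an uninjured area of 0.980. The mean of per-cell levels gave 2366 and 1740 (mesenchymal), 139 and 57.1 (C1q), and ratios of 0.735 and 0.409. TMM scaling gave ratios of 0.688 and 0.215, and male cells alone 0.710 and 0.242.

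Thinning to 1500 UMIs gave mesenchymal shares of 90.8% and 88.5%, C1q shares of 16.3% and 7.33% and areas of 0.928 and 0.929. No thinning gave shares of 99.7% and 99.3%, and 60.2% and 22.3%. EGFP per 10000 UMIs gave areas of 0.986 and 0.992. EGFP as a share of EGFP plus tdTomato, in cells with a UMI of either, gave 0.515 and 0.550. The rarity of tdTomato held these areas near 0.5. Of the blood-gated cells 779 uninjured and 1177 day 3 ones had EGFP alone, and 12 and 96 had tdTomato alone. Without clusters 11 and 17, chosen after seeing the data, mesenchymal levels were 2619 and 1844, uninjured C1q 101, ratios 0.704 and 0.480, mesenchymal shares 98.4% and 98.2%, the uninjured C1q share 23.9% and areas 0.981 and 0.984. With no minimum level, 5031 genes were at least 2-fold higher and 3905 lower in mesenchymal cells, against 1469 and 508. tdTomato levels in C1q macrophages stayed within their intervals under every alternative run, though the day 3 level could not change without clusters 11 and 17.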

Other observations

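Myeloid cells outside the gates carried little EGFP and few tdTomato UMIs. At day 3 the 314 ungated cells with monocyte markers (Ly6c2, Ccr2 and others) had EGFP at 54.5 CPM (47.4 to 62.5) and 5 tdTomato UMIs. The 171 ungated cells with markers of granule-forming precursors (Elane, Mpo and others) had 29.6 CPM (23.3 to 37.2) and 3 tdTomato UMIs. With gated cells included EGFP was higher. It stood at 168 CPM (158 to 177) in 734 cells with monocyte markers and 121 CPM (111 to 132) in 352 with precursor markers. Of these cells 1.77% and 1.99% were in the mesenchymal gate. Cluster 23, led by the antigen-presentation genes H2-Aa, H2-Eb1 and Cd74, had EGFP at 39.4 CPM and the highest tdTomato of the 27 sums, 6.23 CPM (2.28 to 13.5) from 6 UMIs.

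Among EGFP-rich cells, 198 uninjured cells with tendon markers had EGFP at 2102 CPM (2059 to 2145), and 56 with osteoblast markers had 1478 CPM (1416 to 1541). Cells with smooth muscle markers had 2615 CPM in 920 uninjured cells and 1804 CPM in 499 day 3 cells. These marker groups overlap the mesenchymal gate, which held 88.4%, 73.2%, 84.6% and 91.6% of them in that order.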
